A study of Mus musculus with 32 samples.

Results

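The genes described here are the 5 subunits of the transcription factor NF-kB (Nfkb1, Nfkb2, Rel, Rela and Relb) and 5 genes that restrain or shape its activity (Nfkbia, Nfkbie, Nfkbiz, Tnfaip3 and Bcl3), which makes 10 of the 49671 genes in the count table. The rule that chose them is a list of names and uses no measured value. The names were chosen with earlier results of these data known, so counts of members are a description. All 10 passed the filter on low counts at both time points. The libraries came from cultured cortical neurons of WT C57BL/6 mice, prepared from forebrains of embryonic days 17 to 18. The cultures were left untreated or were exposed to 10 µg/mL of a synthetic oligoribonucleotide with phosphorothioate bonds. The series used 3 such RNAs: miR-92a-1-5p, the 5′ strand miR-124-5p of another precursor, and as control a mutated sequence called Mut.oligo. RNA was collected after 6 h or 5 d, with 4 libraries in each of the 8 groups and 32 in all. The comparison group at each time was the untreated culture. How many embryos or wells stood behind a library was not given in the sources used here, so p-values measure the spread between these libraries only.

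NF-kB proteins form dimers that are held in the cytoplasm by inhibitory IkB proteins until the IKK kinases mark those inhibitors for degradation. Toll-like receptors, among them the endosomal RNA sensor TLR7 through the adaptor Myd88, are a route into this cascade. Once in the nucleus the dimers switch on cytokine and chemokine genes and also the genes of their own inhibitors, so that Nfkbia, Nfkbie, Tnfaip3, Nfkbiz, Nfkb2, Relb and Bcl3 are widely used as readouts of NF-kB activity. In brain cultures the pathway is active in glia, microglia above all, and its extent in neurons has been debated.

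Some sequences behind this design are shown first, those of miR-92a-1-5p and of the promoter stretches through which NF-kB can act on its own genes. The other oligoribonucleotides are not printed, and their share of G or U was not computed. Mature miR-92a-1-5p has 23 bases, is encoded at chr14:115044437-115044459 on the plus strand (GRCm38.p6, RefSeq), and 69.6% of its bases are G or U. Its seed, bases 2 to 8, is in capitals.
miR-92a-1-5p: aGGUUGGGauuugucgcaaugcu

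RefSeq promoter windows (GRCm38.p6, from 250 bases before to 50 bases after a start site) were at hand for 7 of the 10 members, some with several start sites, and were searched on both strands for the 10-base NF-kB consensus. A match was found for 6 of these 7 members, all but Rela, and in 8 of their 10 windows. Over all promoters of the same length, 1480 of 32851 windows (4.51%) and 1388 of 27025 genes (5.14%) held a match. These matches are letters in a window and say nothing of occupancy in these cultures. The last 150 bases before the start site are printed for the members with a match there, in the gene's own direction, because they show how close to the start the matches lie. Bases inside a match are in capitals. The match of Bcl3 began after its start site, so that gene is not shown. Nfkb2 (chr19:46304587-46304736, plus strand) had 3 matches, of which 2 overlapped, beginning 39 bases (read on both strands) and 38 bases (opposite strand) before the start, and the remaining match began 11 bases before it. The window shown belongs to the first of its 3 start sites.
Nfkb2: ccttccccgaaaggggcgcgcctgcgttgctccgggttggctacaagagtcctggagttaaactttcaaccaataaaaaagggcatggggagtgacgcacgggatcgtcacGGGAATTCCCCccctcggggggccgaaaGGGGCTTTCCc

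Nfkbia (chr12:55492648-55492797, minus strand) had 1 match, which began 29 bases before its start.
Nfkbia: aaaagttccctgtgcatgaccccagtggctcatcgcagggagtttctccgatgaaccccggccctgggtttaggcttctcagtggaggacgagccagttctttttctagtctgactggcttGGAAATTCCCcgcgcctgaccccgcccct

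Tnfaip3 (chr10:19015411-19015560, minus strand) had 2 matches, beginning 125 and 12 bases before the start, and its other start site had none.
Tnfaip3: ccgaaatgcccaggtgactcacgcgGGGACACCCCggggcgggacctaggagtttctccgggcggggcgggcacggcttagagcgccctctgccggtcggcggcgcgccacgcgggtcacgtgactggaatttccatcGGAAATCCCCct

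Rel (chr11:23770970-23771119, minus strand) had 2 overlapping matches 92 and 91 bases before the start, and Nfkbie (chr17:45555550-45555699, plus strand) had 1 at 106 bases.
Rel: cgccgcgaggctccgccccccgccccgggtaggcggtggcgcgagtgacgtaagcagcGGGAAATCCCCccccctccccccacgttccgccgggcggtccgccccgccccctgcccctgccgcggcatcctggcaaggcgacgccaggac
Nfkbie: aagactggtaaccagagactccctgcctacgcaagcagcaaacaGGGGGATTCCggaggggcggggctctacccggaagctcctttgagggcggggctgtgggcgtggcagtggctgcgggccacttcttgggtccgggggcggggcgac

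In GRCm38 the subunit genes lie at chr3:135584655-135691547 (Nfkb1, minus strand), chr19:46304320-46312385 (Nfkb2, plus), chr11:23736847-23770970 (Rel, minus), chr19:5637483-5648130 (Rela, plus) and chr7:19606217-19629438 (Relb, minus). The inhibitor genes lie at chr12:55489410-55492647 (Nfkbia, minus), chr17:45555703-45563169 (Nfkbie, plus) and chr10:19000910-19015657 (Tnfaip3, minus), and the nuclear IkB genes at chr16:55811375-55838899 (Nfkbiz, minus) and chr7:19808462-19822770 (Bcl3, minus). Counts are over all exons of a gene.

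The members were present at very different levels. As TPM, counts per length of merged exons scaled to the same total in every library, Nfkbia, which encodes the inhibitor IkBa, had a mean of 42.0 over the 32 libraries (29.6 to 54.1), and Rela, the p65 subunit that carries the main transactivation domain, had 36.1 (28.7 to 42.0). Next came Nfkb1 (p105/p50) with a mean of 4.76 TPM, Nfkbie (IkBe) with 4.46, Relb, a subunit of the non-canonical pathway, with 4.16, Nfkb2 (p100/p52) with 3.76 and Nfkbiz, a nuclear IkB protein, with 3.41. Tnfaip3, which encodes the ubiquitin-editing enzyme A20, had 2.44 TPM, and Rel (c-Rel) had 1.54. Bcl3, another nuclear IkB protein, was lowest at 0.317 TPM and rested on 2 to 19 counts per library, within or near the limit of 3 counts that a library can resolve. The ranges over libraries of Nfkbia and Rela overlapped, as did those of the neighbours from Nfkb1 down to Rel. Rela (at least 28.7) and Nfkb1 (at most 6.03) did not overlap, nor did Rel (at least 1.18) and Bcl3 (at most 0.848).

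**Figure D1:**
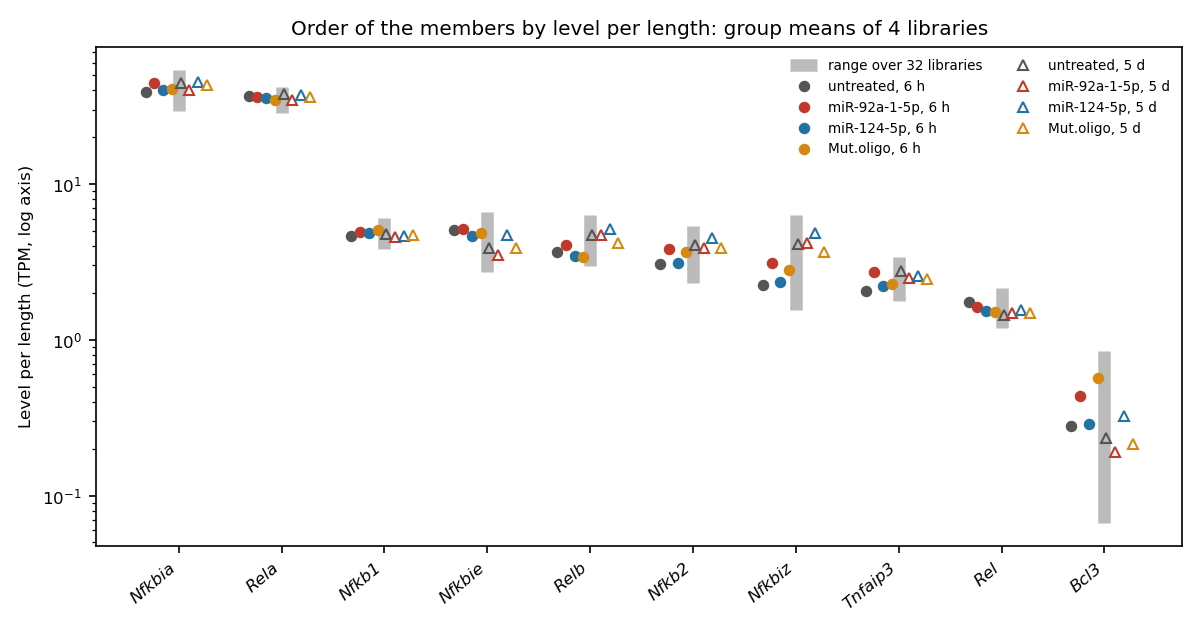
Mean level per length (TPM, log axis) of each member in each of the 8 groups (filled circles 6 h, open triangles 5 d, colours by treatment), with the range over all 32 libraries as a grey bar. Nfkbia and Rela stand at 42.0 and 36.1 TPM, 7 members lie between 1.54 and 4.76 TPM, and Bcl3 lies at 0.317 TPM.

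Libraries held 24514090 to 73626029 counts (median 43798676), so that 3 counts correspond to 0.0407 to 0.122 CPM, the usual scaling of counts to the library total. No replicate pair was a duplicate, since in all 48 pairs within groups the counts differed by at least 6.60 times the sampling variance. The 13 neuronal markers summed to 6519 to 8444 CPM, and markers of other cells were found in every library. Summed astrocyte markers ran from 391 to 883 CPM at 6 h and from 1725 to 3382 CPM at 5 d. The 18 microglial markers summed to 32.6 to 61.7 CPM at 6 h and to 45.8 to 93.1 CPM at 5 d, with Siglech at 0 in 24 of 32 libraries and P2ry12 at 0 in 2, and the other 16 above 0 in all 32. In such bulk RNA, fewer cells of a type and less RNA per cell cannot be told apart.

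After 6 h of miR-92a-1-5p, no member passed the test for a change (edgeR's quasi-likelihood test, Benjamini-Hochberg adjusted p under 0.05 over all genes and a log2 fold change beyond 0.5 in either direction), either without a covariate or with the experiment batch named in the labels as a covariate. The percentages of all 18755 genes tested that passed were 0 without the covariate and 0.208 with it (39 genes, 14 higher and 25 lower). At an unadjusted p under 0.05 there was 1 member without the covariate (Tnfaip3) and there were 4 with it (Nfkbiz, Tnfaip3, Nfkbia and Nfkb2). DESeq2 called 0 in either form, with 1 and 2 members under an unadjusted 0.05. The microglial marker sums of the groups overlapped, at 32.6 to 55.7 CPM untreated and 33.5 to 60.2 CPM after miR-92a-1-5p. Every untreated 6 h culture had a partner exposed to miR-92a-1-5p in the same batch, so this comparison could be read within 4 batches. By batch, untreated replicates 1, 2, 3 and 4 paired with miR-92a-1-5p replicates 2, 4, 1 and 3. Values listed below by replicate number therefore do not pair by position.

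Nfkbiz, the nuclear IkB protein needed for a subset of secondary NF-kB targets, measured 3.05, 2.24, 1.99 and 4.35 CPM in untreated replicates 1 to 4 and 3.44, 3.46, 5.15 and 3.65 CPM in miR-92a-1-5p replicates 1 to 4. The groups overlapped through untreated replicate 4 (4.35 CPM), yet within each of the 4 batches the exposed culture was the higher, by 0.17 to 0.77 on the log2 CPM scale. The log2 fold change was 0.42 ± 0.25 (SE) without a covariate (adjusted p = 0.999) and 0.45 ± 0.13 with the batch (adjusted p = 0.124). Over all settings tried the value stayed between 0.27 and 0.69.

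Tnfaip3 measured 3.28, 4.51, 3.29 and 4.19 CPM in the untreated libraries and 5.42, 4.64, 5.15 and 4.48 CPM after miR-92a-1-5p. The lowest exposed library (4.48 CPM) lay just under the highest untreated one (4.51 CPM). The log2 fold change was 0.36 ± 0.15 without a covariate (adjusted p = 0.999) and 0.36 ± 0.12 with the batch (adjusted p = 0.172). The exposed culture was higher in 3 of 4 batches, by 0.29 to 0.71, and the remaining pair differed by -0.01.

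Nfkbia measured 14.4, 17.2, 14.2 and 18.7 CPM in the untreated libraries and 16.4, 15.9, 20.3 and 18.5 CPM after miR-92a-1-5p. The groups overlapped widely, but all 4 within-batch differences were positive and close to each other, from 0.11 to 0.19 on the log2 CPM scale. The log2 fold change was 0.14 in both fits, while its SE went from 0.10 without a covariate to 0.047 with the batch (adjusted p = 0.195). The 95% confidence interval with the batch, 0.04 to 0.24, lay below the minimum of 0.5.

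Nfkb2 measured 3.38, 3.63, 2.99 and 4.48 CPM untreated and 3.52, 4.57, 5.23 and 4.09 CPM after miR-92a-1-5p, again with overlapping groups. It was higher in 4 of 4 batches, by 0.17 to 0.42, with a log2 fold change of 0.27 ± 0.12 with the batch (adjusted p = 0.344). Nfkb1 differed by 0.00 to 0.14 and counted as higher in 4 of 4 batches. Of all genes tested, 12.6% were higher in all 4 batches, against 4 of the 10 members (Nfkb1, Nfkb2, Nfkbia and Nfkbiz), and 0 members were lower in all 4. Bcl3 had the greatest log2 fold change with the widest error, 0.52 ± 0.53 without and 0.61 ± 0.37 with the batch (adjusted p = 0.513). It rested on 2 to 19 counts. Its mean at 6 h was 0.177 CPM untreated and 0.270 CPM with miR-92a-1-5p, but 0.355 CPM with the control Mut.oligo. For miR-124-5p the mean was 0.181 CPM. Bcl3 was higher with Mut.oligo than untreated in 2 of 2 shared batches, by 0.44 and 0.75. With miR-92a-1-5p it was lower than with Mut.oligo in 2 of 2, by -0.17 and -0.52.

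The other members showed little or lay below the untreated mean. Rela measured 26.7, 31.4, 28.1 and 29.4 CPM untreated and 25.7, 27.7, 28.0 and 29.0 CPM exposed, a log2 fold change of -0.07 ± 0.04 with the batch (95% confidence interval -0.16 to 0.03). Rel had a log2 fold change of -0.15 ± 0.13, Relb of 0.10 ± 0.10 and Nfkbie of -0.03 ± 0.11, all with the batch. For these 3 the within-batch differences had mixed signs.

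**Figure D2:**
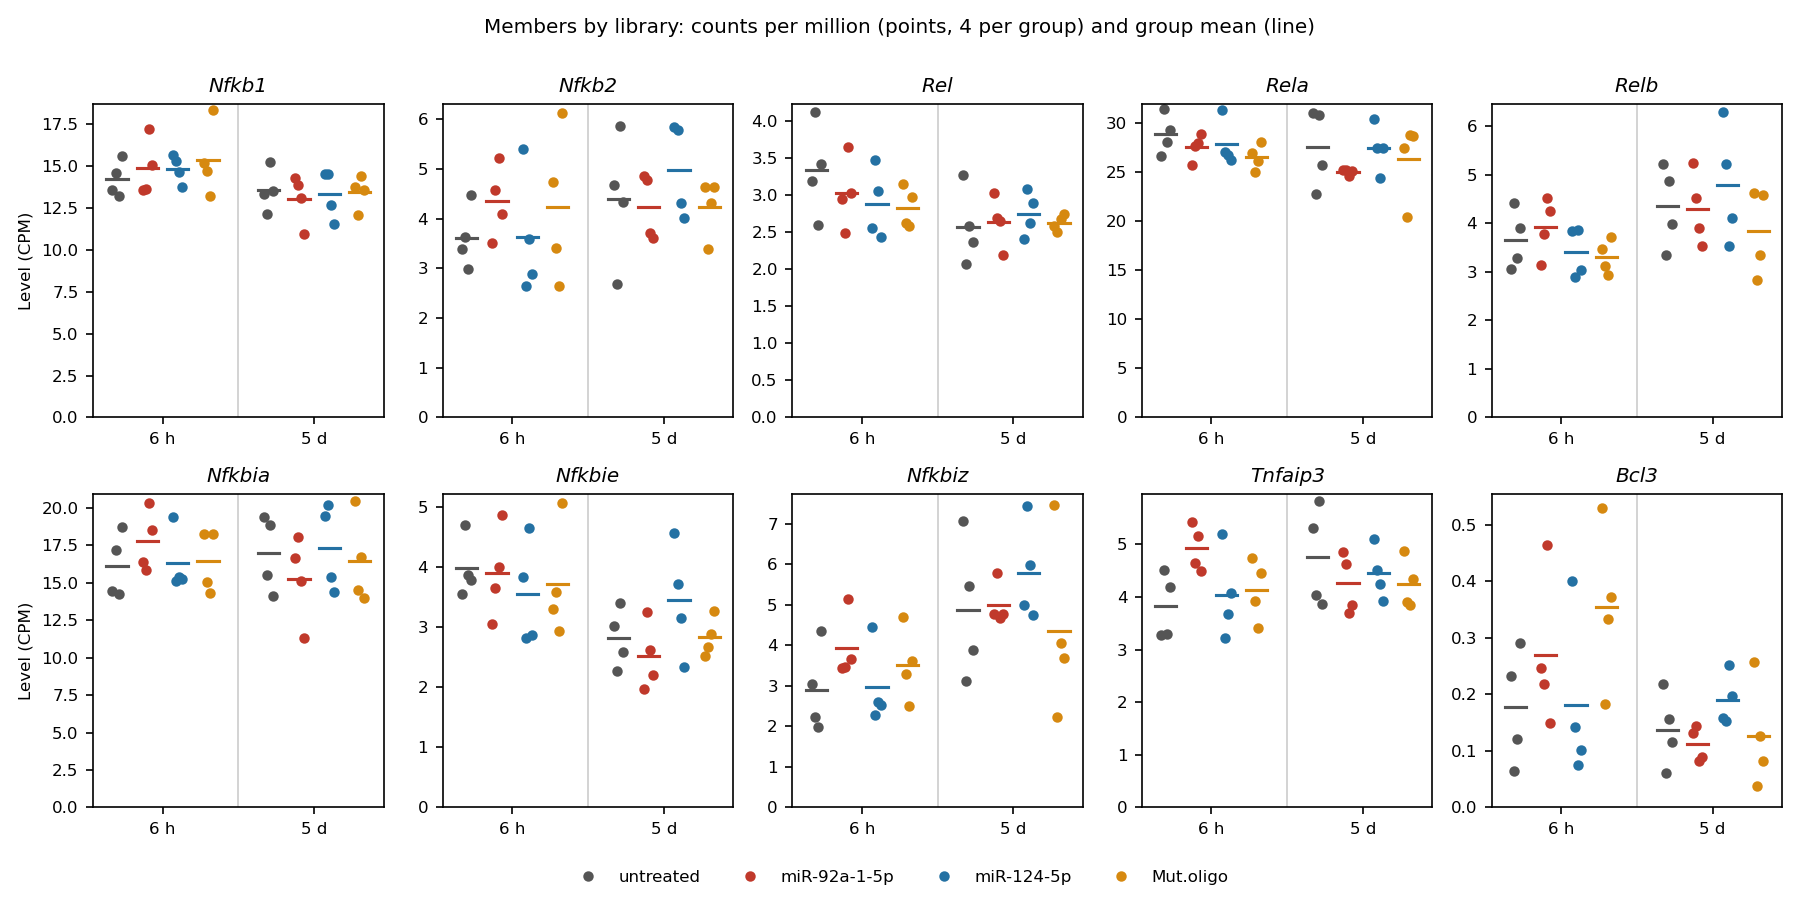
Level of each member in CPM in every library (points, 4 per group) with the group mean (line), at 6 h and 5 d and in colours by treatment. Tnfaip3 at 6 h runs from 3.28 to 4.51 CPM untreated and from 4.48 to 5.42 CPM after miR-92a-1-5p, and for most members the groups overlap.

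After 6 h of miR-124-5p, 0 of 10 members passed with either fit, and 0 had an unadjusted p under 0.05 with edgeR or with DESeq2. The percentage of all genes called was 0 in both fits. Nfkbiz measured 4.46, 2.29, 2.60 and 2.53 CPM and Tnfaip3 5.19, 3.22, 3.67 and 4.07 CPM. In both genes replicate 1 was the highest, and it came from the batch of untreated replicate 4. With the batch as covariate the log2 fold change of Nfkbiz was 0.03 ± 0.16, that of Tnfaip3 0.14 ± 0.15 and that of Nfkbia 0.05 ± 0.06. Only 2 batches held both an untreated and a miR-124-5p library. Tnfaip3 was higher in both, by 0.29 and 0.30, and Nfkbia by 0.04 and 0.10. In all, 3 members were higher in both batches and 2 lower, against 26.1% and 27% of all genes.

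After 6 h of Mut.oligo, again 0 of 10 members passed, with 0% of genes called without a covariate and 0.0213% (4 genes) with the batch. Only Rela had an unadjusted p under 0.05 in the edgeR fits, at a log2 fold change of -0.12 ± 0.06 in both. DESeq2 called 0 members, with 1 under an unadjusted 0.05 without the covariate and 0 with it. Nfkbiz measured 4.69, 3.28, 2.51 and 3.61 CPM, Tnfaip3 4.73, 3.92, 3.41 and 4.46 CPM and Nfkbia from 14.3 to 18.3 CPM. All 3 genes overlapped their untreated levels. Mut.oligo replicate 4, alone in its batch, had the highest Nfkb2 (6.14 CPM) and Nfkb1 (18.3 CPM) values of all 32 libraries and the highest microglial marker sum at 6 h (61.7 CPM). Nfkb2 had a log2 fold change of 0.21 ± 0.24 without the covariate and of -0.06 ± 0.16 with it, and the sign of Nfkb1 turned in the same way. In the 2 shared batches 6 members were lower in both and 2 higher (Tnfaip3 and Bcl3), against 27.2% and 27.5% of all genes.

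**Figure D3:**
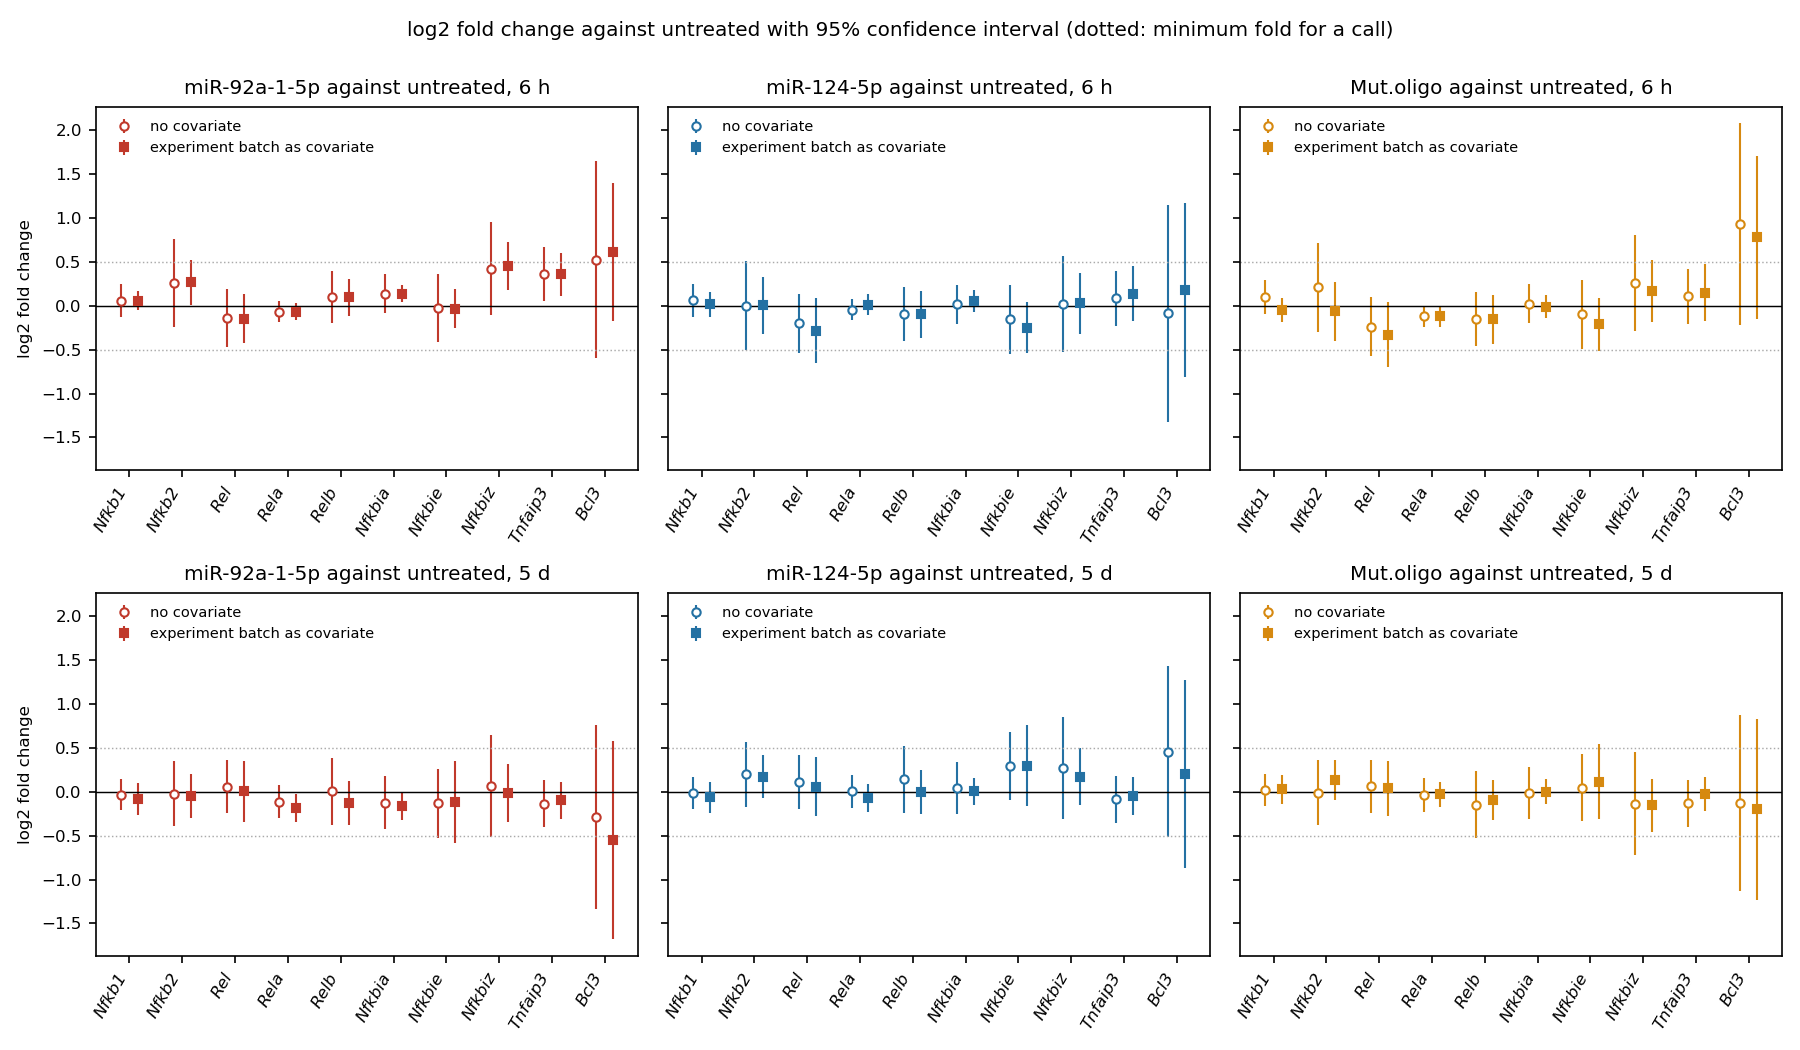
log2 fold change of each member against untreated at 6 h (top) and 5 d (bottom), with its 95% confidence interval, from the fit without a covariate (open circles) and with the experiment batch (filled squares); dotted lines mark the minimum of 0.5. With miR-92a-1-5p at 6 h the interval of Nfkbia narrows around 0.14 once the batch is in the fit, and Bcl3 has the widest intervals throughout.

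The 3 oligoribonucleotides were also compared with each other at the same dose and time, 3 pairs at each time and 6 in all. At 6 h 0 of 10 members and 0% of all genes passed in any pair, with either fit. At an unadjusted p under 0.05 there were 0 members without the covariate. With it there were 2 for miR-92a-1-5p against Mut.oligo (Nfkb2 and Nfkbia) and 1 in each of the other pairs, and DESeq2 called 0. Nfkbiz was 0.43 ± 0.16 higher on the log2 scale after miR-92a-1-5p than after miR-124-5p with the batch as covariate (95% confidence interval 0.09 to 0.76, adjusted p = 0.946), and 0.29 ± 0.16 higher than after Mut.oligo (-0.05 to 0.63). For Nfkbia, the difference of miR-92a-1-5p from Mut.oligo was 0.15 ± 0.06 (0.02 to 0.27) and that from miR-124-5p 0.09 ± 0.06 (-0.04 to 0.21). For Tnfaip3 these differences were 0.21 ± 0.15 (-0.10 to 0.52) and 0.22 ± 0.14 (-0.08 to 0.52). Between miR-124-5p and Mut.oligo, Nfkbia differed by 0.06 (-0.07 to 0.19) and Tnfaip3 by -0.01 (-0.34 to 0.32). These intervals do not show that the oligoribonucleotides acted alike. In the 2 batches that held both libraries, 8 members (all but Rel and Bcl3) had higher values with miR-92a-1-5p than with Mut.oligo, where 24% of all genes did. The same count against miR-124-5p was 6, next to 26.1% of all genes. The comparisons with untreated and with each other share libraries and are not independent.

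After 5 d, 0 of 10 members passed in any comparison with untreated. The percentages of the 19333 genes tested that were called were 0.00517 for miR-92a-1-5p (1 gene) and 0 for the other two without a covariate. With the batch they were 0.352 for miR-92a-1-5p (68 genes, 67 of them lower), 0.0259 for miR-124-5p and 0.0466 for Mut.oligo. At an unadjusted p under 0.05 there were 0 members without the covariate, and with it 2 for miR-92a-1-5p (Rela and Nfkbia) and 0 for the others. DESeq2 called 0 members in each, and had 1 member under an unadjusted 0.05, for miR-92a-1-5p with the batch.

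The feedback genes did not stand above untreated cultures after 5 d of miR-92a-1-5p. Nfkbia lay between 11.3 and 18.05 CPM, against 19.4, 15.5, 18.8 and 14.1 CPM in the untreated libraries. Its log2 fold change was -0.13 ± 0.14 without and -0.17 ± 0.07 with the batch (95% confidence interval -0.32 to -0.01, adjusted p = 0.429). Tnfaip3 measured 4.86, 4.62, 3.69 and 3.85 CPM, against 5.31, 4.04, 5.82 and 3.87 CPM, a log2 fold change of -0.10 ± 0.10 with the batch. Nfkbiz lay within 4.66 to 5.77 CPM, against 3.12 to 7.06 CPM in the untreated libraries, at a log2 fold change of -0.02 ± 0.15. Rela lay within 24.6 to 25.3 CPM, against 22.8 to 31.0 CPM untreated, and its log2 fold change was -0.19 ± 0.07 (adjusted p = 0.405). The lowest untreated value of both genes came from replicate 2, whose batch held no miR-92a-1-5p library, so these spans are not of the same batches. The 2 shared batches had 5 members lower in both and 0 higher in both, against 28.6% and 27.3% of all genes.

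After 5 d of miR-124-5p, Nfkbia had 19.4, 20.2, 15.4 and 14.4 CPM, Nfkbie 4.56, 3.72, 3.15 and 2.33 CPM and Nfkbiz 4.99, 7.45, 5.97 and 4.75 CPM, all overlapping the untreated libraries. The largest fold change among members other than Bcl3 was that of Nfkbie, 0.30 ± 0.21 with the batch, and Nfkbia stood at 0.01 ± 0.07. In the 2 shared batches Nfkbie differed by -0.12 and 0.31. There 3 members were higher in both and 0 lower in both, against 27.5% and 29.9% of all genes. After 5 d of Mut.oligo, Nfkbia had 20.5 CPM in replicate 1 and at most 16.7 CPM in the other 3, at a log2 fold change of 0.00 ± 0.06 (95% confidence interval -0.14 to 0.14). Nfkbiz ranged there from 2.23 to 7.46 CPM, and the untreated libraries of the batches at the low and the high end had 3.12 and 7.06 CPM. In the 3 batches shared by Mut.oligo and untreated, 1 member was higher in all and 0 lower in all, against 13.6% and 15.2% of all genes. The microglial markers had a median log2 fold change of -0.14 in this comparison without the covariate, 1 of 17 positive.

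Markers of other cells also differed between the groups of 5 d. The 7 markers of the oligodendrocyte lineage summed to 167.2 to 205 CPM in untreated libraries, 125 to 137 CPM after Mut.oligo and 86.6 to 167.1 CPM after miR-92a-1-5p, without overlap, and to 112 to 195 CPM after miR-124-5p. With the batch in the fit, miR-92a-1-5p had 4 of these 7 called lower, Mut.oligo had 1 and miR-124-5p had 2, and 0 passed without it. The 7 endothelial markers summed to 5.99 to 11.5 CPM untreated, 3.76 to 5.03 CPM after miR-92a-1-5p and 3.84 to 5.78 CPM after Mut.oligo, again without overlap, and to 5.26 to 6.80 CPM after miR-124-5p. The sums of neuronal, astrocyte, microglial and mural markers overlapped untreated in all 3 groups. The part of these cells in the members' values at 5 d was not tested.

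Between the oligoribonucleotides at 5 d, 0 of 10 members passed. The percentage of all genes called was 0 for each pair without a covariate. With the batch it was 0.0103 for miR-92a-1-5p against either other oligoribonucleotide and 0 for miR-124-5p against Mut.oligo. At an unadjusted p under 0.05 there was 1 member without and there were 3 with the covariate for miR-92a-1-5p against miR-124-5p, 0 and 2 for miR-92a-1-5p against Mut.oligo, and 0 and 1 for miR-124-5p against Mut.oligo, while DESeq2 called 0. Each library of the first pair had its partner in the same batch. With miR-92a-1-5p, 5 members (Nfkb2, Rela, Nfkbia, Nfkbie and Bcl3) were the lower in 4 of 4 batches, where 6.16% of all genes were, and 0 members were the higher in all 4. Nfkbie, which holds back dimers with Rel and Rela, measured 1.97, 3.25, 2.62 and 2.21 CPM after miR-92a-1-5p and 4.56, 3.72, 3.15 and 2.33 CPM after miR-124-5p. The gap was widest in the batch of the pair of replicates 1, at -1.13 on the log2 CPM scale, and -0.09 to -0.28 in the other 3. Its log2 fold change was -0.42 ± 0.18 with the batch (95% confidence interval -0.81 to -0.02, adjusted p = 0.619). For Nfkbia the difference was -0.17 ± 0.06 (-0.30 to -0.05, adjusted p = 0.582) and for Nfkb2 -0.22 ± 0.10 (-0.43 to -0.01, adjusted p = 0.623). Bcl3 had 4 to 7 counts after miR-92a-1-5p and 7 to 11 after miR-124-5p, and it was the only member whose CPM values did not overlap between the groups in any comparison of oligoribonucleotides with each other or with untreated. In this comparison 1.7% of all genes did not overlap, and in the 6 comparisons with untreated 1.44% to 4.43% of genes and 0 members.

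**Figure D4:**
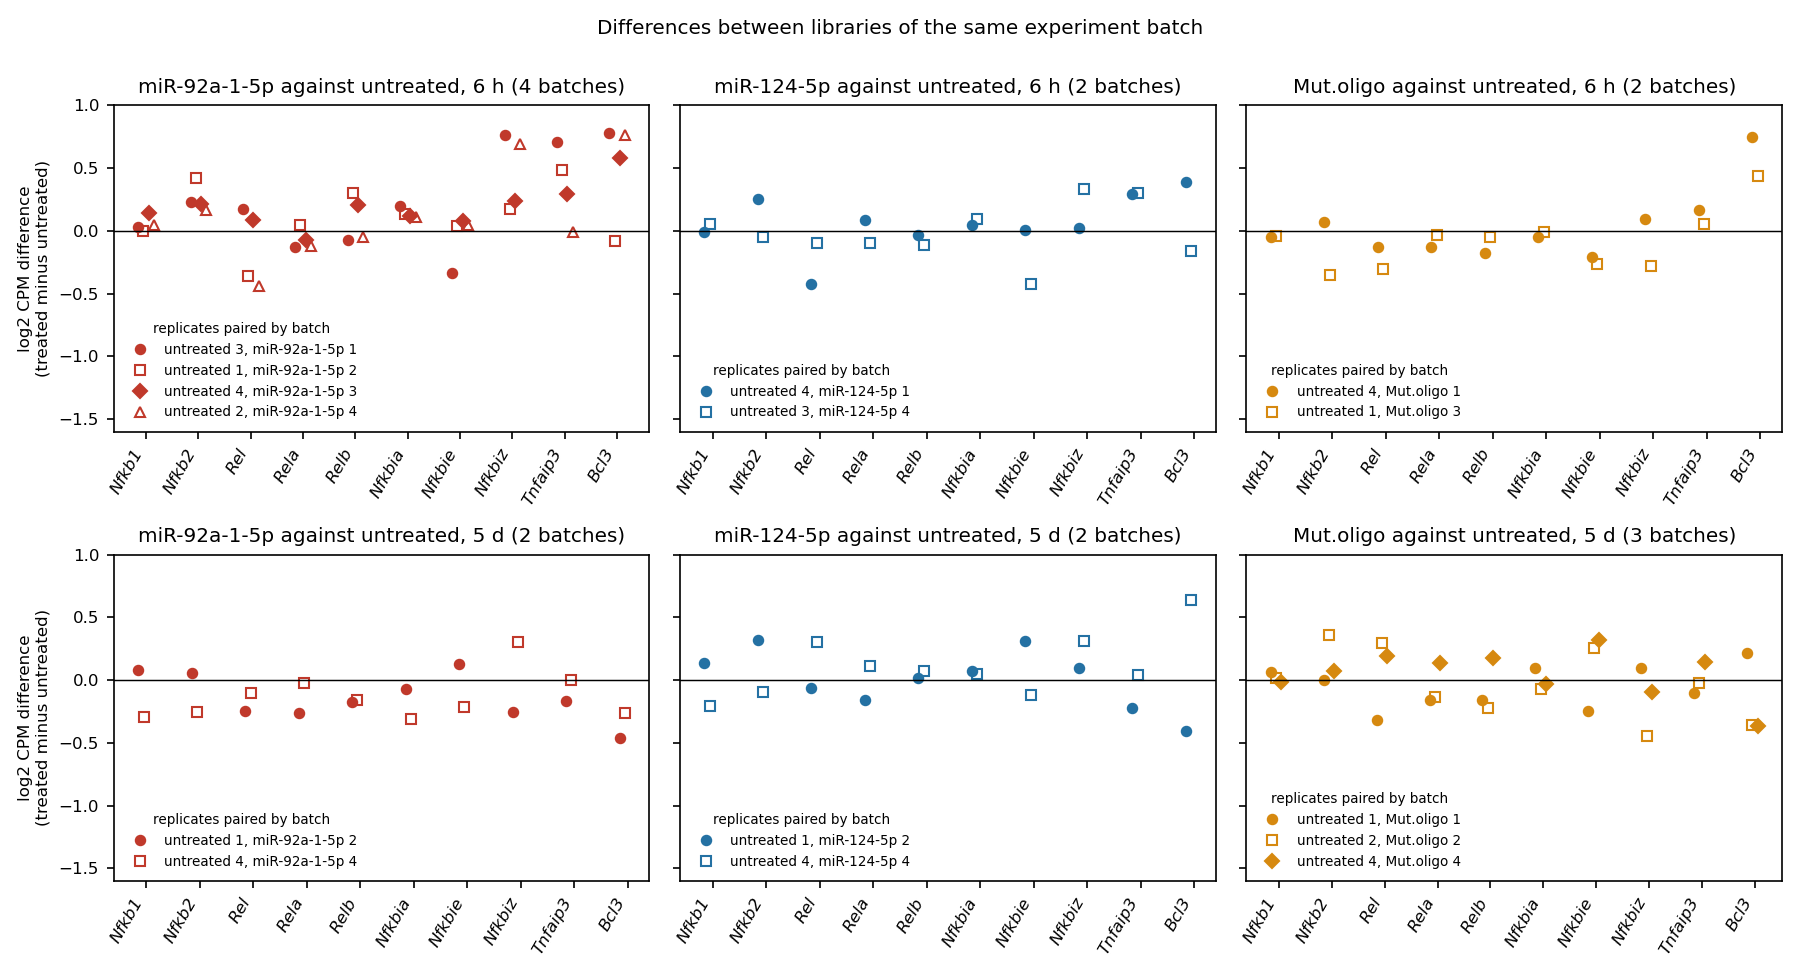
Difference in log2 CPM between an exposed and an untreated library of the same experiment batch, for each member (horizontal axis) and each shared batch (symbols), at 6 h (top) and 5 d (bottom). With miR-92a-1-5p at 6 h all 4 symbols of Nfkb2, Nfkbia and Nfkbiz lie above 0, and with the same RNA at 5 d 0 members have both symbols above 0.

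Whether the effect of an oligoribonucleotide differed between the times was tested in a fit of all 32 libraries. The 6 h and 5 d libraries came from separate batches, so a difference between times cannot be told apart from one between batches. At 5 d miR-92a-1-5p shared only 2 batches with untreated. For miR-92a-1-5p 0 of 10 members passed, with 0% of the 20425 genes called without a covariate and 0.137% (28 genes) with the batch. The effect on Nfkbia at 5 d minus that at 6 h was -0.30 ± 0.08 on the log2 scale with the batch (95% confidence interval -0.47 to -0.13, adjusted p = 0.128), on Tnfaip3 -0.45 ± 0.16 (-0.79 to -0.12, adjusted p = 0.274) and on Nfkbiz -0.46 ± 0.21 (-0.90 to -0.02, adjusted p = 0.429). These 3 members had an unadjusted p under 0.05 with the batch, and 1 (Tnfaip3) without it. For miR-124-5p and Mut.oligo 0 of 10 members passed and 0 had an unadjusted p under 0.05 in either fit. The percentages of all genes called were 0 for both without the covariate, and 0.0049 for miR-124-5p and 0.00979 for Mut.oligo with the batch. DESeq2 called 0 members in each of these 3 tests.

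Untreated cultures themselves differed between the times, with 33.5% of all genes called (6835 of 20425). Each time point had batches of its own, so time and batch cannot be told apart, and no fit with the batch could be made. Among the members, 2 of 10 were called, a smaller share than that background. Nfkbiz rose, from 3.05, 2.24, 1.99 and 4.35 CPM at 6 h to 7.06, 3.12, 5.45 and 3.88 CPM at 5 d, a log2 fold change of 0.72 ± 0.28 (adjusted p = 0.0311), with overlapping groups. Nfkbie fell, from 3.55, 4.70, 3.86 and 3.79 CPM to 3.02, 2.27, 3.40 and 2.58 CPM, a log2 fold change of -0.51 ± 0.19 (adjusted p = 0.022), and it was the only member whose groups did not overlap, as in 46.8% of all genes. Neither call was firm. Without untreated 6 h replicate 2 or 3, 0 members were called, without untreated 6 h replicate 4 or untreated 5 d replicate 2 or 4 Nfkbiz alone was called, and without untreated 5 d replicate 1 or 3 Nfkbie alone. Rel had a log2 fold change of -0.38 ± 0.15 (adjusted p = 0.0285) and missed the minimum fold. Rela (-0.08), Nfkb1 (-0.09) and Nfkbia (0.06) stayed near 0 in this contrast. All 9 astrocyte markers were called higher at 5 d, with a median log2 fold change of 2.17, and 4 of 17 microglial markers were higher and 1 lower. Their part in the changes of Nfkbiz and Nfkbie was not tested.

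In several members the means of experiment batches spread more widely than the means of treatments. At 6 h, the 4 libraries of the batch of untreated replicate 4 (which also held Mut.oligo replicate 1, miR-124-5p replicate 1 and miR-92a-1-5p replicate 3) had 4.35 to 5.15 CPM of Nfkbiz, while the means of the other 6 batches were 2.60 to 3.61 CPM. The same 4 libraries had 18.2 to 20.3 CPM of Nfkbia and 4.48 to 5.41 CPM of Nfkb2, and microglial marker sums of 55.7 to 60.2 CPM, against 32.6 to 47.7 CPM in the other 6 h libraries apart from Mut.oligo replicate 4. At 5 d, the batch of untreated replicate 1 had 5.77 to 7.46 CPM of Nfkbiz and the batch of untreated replicate 2 had 2.23 to 3.12 CPM. In standard deviations of log2 CPM over batches with 2 or more libraries, Nfkbiz varied at 5 d by 0.46 between batch means and by 0.22 within batches. Its treatment means, taken over all 16 libraries of that time, varied by 0.21. For Nfkbia the corresponding values at 5 d were 0.19, 0.11 and 0.076, and at 6 h 0.14, 0.076 and 0.063. Nfkbie at 5 d went the other way, with 0.11 between batch means, 0.32 within batches and 0.17 between treatment means. Tnfaip3 at 6 h was level, with 0.16 between batch means, 0.23 within batches and 0.16 between treatment means. Batch means rest on 2 to 4 libraries and treatment means on 4, and not every batch held every treatment, so these values are only a description. The part of the microglial content in these differences was not tested.

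Several members moved together across the 16 libraries of 6 h. The closest pairs were Nfkb2 with Nfkbia (Pearson's r = 0.82), Nfkbia with Nfkbiz (0.81), Nfkb2 with Nfkbiz (0.79), Nfkbiz with Bcl3 (0.79) and Relb with Nfkbie (0.76), and the weakest was Nfkbie with Bcl3 (-0.19). At 5 d Nfkbiz and Bcl3 had 0.85 and Nfkb2 and Relb 0.75. These are descriptions over libraries that share batches and treatments. Among 13479 genes with a mean of at least 1 CPM, those most like Nfkbiz over the 16 libraries were Ccl9 (a chemokine, r = 0.87), Tnfaip2 (0.87) and Lypd6 (0.85). Those most like Tnfaip3 were Mcee (0.86), Ccl3 (a chemokine, 0.82) and Cd44 (0.80), and those most like Nfkbia were Gm7694 (0.94), Ednrb (0.92) and Dcxr (0.92).

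The genes around the members were read from lists. Of 38 transcription targets of NF-kB 36 were tested at 6 h. After miR-92a-1-5p 33 of the 36 had a positive log2 fold change, with a median of 0.37 without a covariate and 0.44 with the batch, where the median of all genes was 0.01 in both. With the batch 5 of them rose and 0 fell, next to the 0.208% of all genes called, while 0 passed without it. They were the cytokine genes Tnf, Il1a and Il1b, the chemokine gene Ccl3 and Clec4e, a receptor of myeloid cells. The list was chosen with earlier results of these data known, so its counts are a description and no independent support. The 10 members had a median of 0.12 in both fits, 7 of 10 positive.

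Tnf measured 2.32, 1.46, 1.96 and 3.52 CPM in the untreated libraries and 3.63, 4.11, 6.01 and 4.63 CPM after miR-92a-1-5p, without overlap, and its log2 fold change with the batch was 1.02 ± 0.18 (adjusted p = 0.0154). Ccl3 went from 4.51, 4.22, 3.68 and 7.13 CPM to 9.62, 9.71, 11.9 and 8.01 CPM, 1.03 ± 0.17 on the log2 scale (adjusted p = 0.00984). Il1b (1.44 ± 0.30, adjusted p = 0.0322), Il1a (1.59 ± 0.27, adjusted p = 0.0111) and Clec4e (1.63 ± 0.37, adjusted p = 0.0465) rested on fewer reads, with 6 to 20, 5 to 18 and 1 to 9 counts per untreated library. All 5 were higher in 4 of 4 batches, by at least 0.74 on the log2 CPM scale, in the same libraries that gave the calls. Under the same test none of the 5 was called after miR-124-5p (0.31 to 0.53) or Mut.oligo (-0.14 to 0.49), nor between miR-92a-1-5p and either of them, so a difference between the oligoribonucleotides was not shown. The microglial markers had a median log2 fold change of -0.01 with the batch after miR-92a-1-5p (6 of 17 positive), and 0 of them passed. Within batches, from untreated to exposed, their sums went from 41.0 to 45.6, 32.6 to 33.5, 42.7 to 39.2 and 55.7 to 60.2 CPM. The part of microglial content in the rise of the 5 genes was not tested.

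After 6 h of Mut.oligo the target list had 28 of 36 positive and a median of 0.33 without a covariate, but 22 of 36 and 0.02 with the batch. The microglial markers shifted along with it, from 17 of 17 positive and a median of 0.24 to 8 of 17 and -0.01, and their part in the first value was not tested. After miR-124-5p the targets had medians of 0.09 and 0.08, with 24 and 22 of 36 positive. At 5 d 32 targets were tested and 0 passed with any oligoribonucleotide in either fit. For miR-92a-1-5p their median was -0.07 without a covariate (15 of 32 positive) and -0.21 with the batch (9 of 32). For miR-124-5p it turned from 0.20 (23 of 32) to -0.05 (12 of 32), and for Mut.oligo from 0.03 (18 of 32) to -0.07 (14 of 32).

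**Figure D5:**
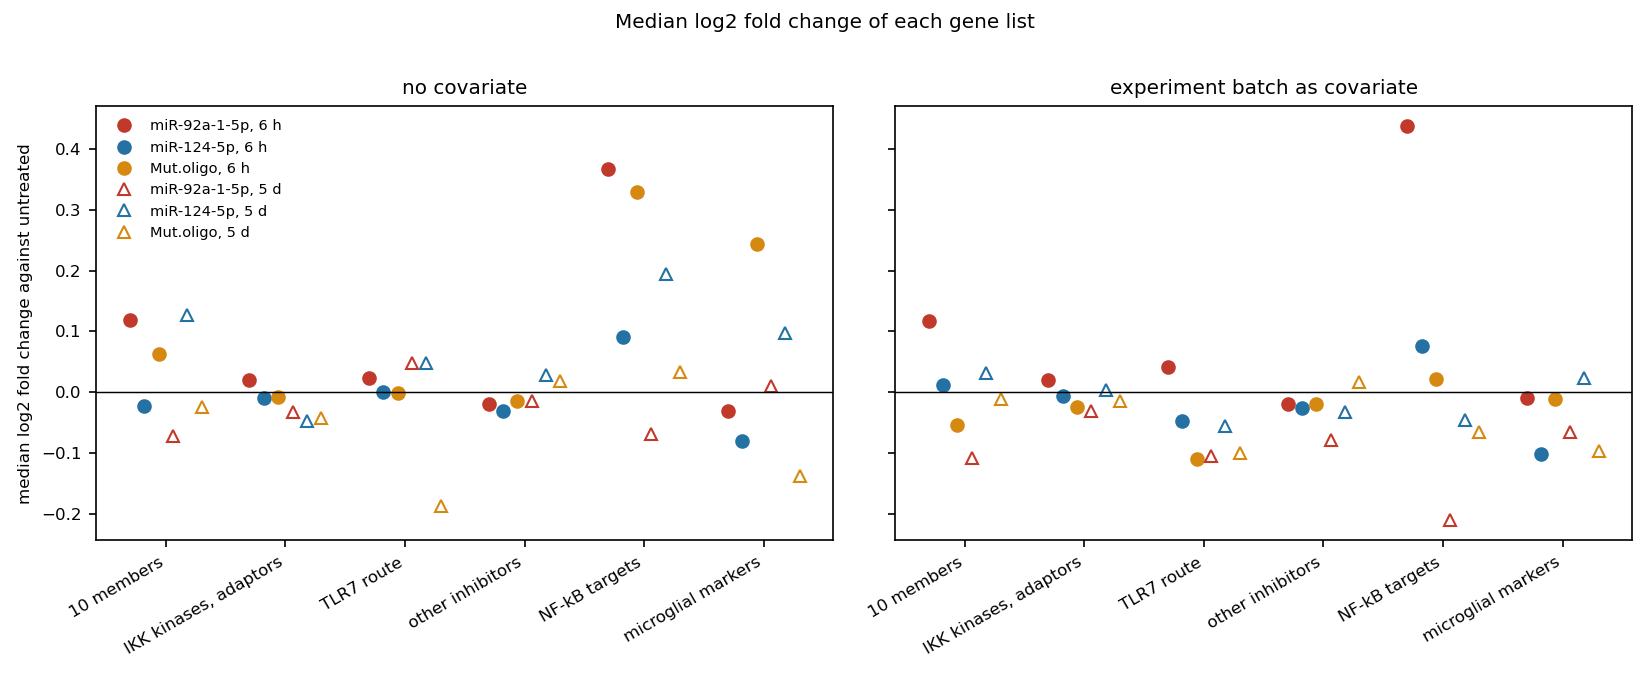
Median log2 fold change against untreated of the 10 members, 4 lists of pathway genes and the microglial markers, without a covariate (left) and with the experiment batch (right), for 6 h (filled circles) and 5 d (open triangles). The NF-kB targets after 6 h of miR-92a-1-5p have medians of 0.37 and 0.44, and for Mut.oligo at 6 h the targets and the microglial markers both come down to about 0 once the batch is in the fit.

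The signalling genes upstream showed no called change in any comparison with untreated. Of 16 IKK kinases and adaptors 0 passed at either time, with medians of -0.05 to 0.02, and those with the smallest p after 6 h of miR-92a-1-5p without the covariate were Chuk, the IKKa kinase (0.12 ± 0.06), and Traf5 (-0.65 ± 0.34). Of 12 genes tested on the TLR7 route 0 passed, with medians of -0.19 to 0.05. Irak2, a kinase downstream of Myd88, had 0.30 ± 0.24, and Traf6, a ubiquitin ligase gene that stands in both lists, 0.06 ± 0.05. Of 22 other inhibitors 0 passed, and the smallest p belonged to Cyld, a deubiquitinase that restrains NF-kB (0.13 ± 0.05), and Nfkbib, the IkBb inhibitor (-0.11 ± 0.06). Chuk, Traf6 and Cyld were higher in 4 of 4 batches after 6 h of miR-92a-1-5p, by up to 0.20, 0.12 and 0.17. Of all genes tested, 12.6% were higher in all 4. Irak2 was higher in 3 of 4, Nfkbib in 1 of 4 and Traf5 in 0 of 4 (-0.97 to -0.12). Irak2 and Cyld were also higher in 2 of 2 batches with either other oligoribonucleotide at 6 h. With Mut.oligo Chuk was higher in 2 of 2 and Traf6 in 1 of 2, and with miR-124-5p both in 1 of 2.

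In the untreated cultures the lists moved in both directions between 6 h and 5 d. Of the 36 targets 8 rose and 12 fell, next to 33.5% of all genes called. Among them the chemokine genes Cxcl1 (3.78 ± 0.87), Ccl7 (2.39 ± 0.85), Ccl2 (2.35 ± 0.66) and Cxcl10 (1.71 ± 0.40) rose on the log2 scale. Tnf (-4.40 ± 0.49) and the chemokine genes Ccl5 (-4.29 ± 0.47), Ccl4 (-3.64 ± 0.34) and Ccl3 (-3.07 ± 0.28) fell. Of the IKK list, the adaptor genes Traf3 (0.54 ± 0.07) and Ripk1 (0.63 ± 0.12) rose. Of the TLR7 route, Irak2 (1.06 ± 0.22) and Tlr7 (0.59 ± 0.25) rose and Irf7 (-2.75 ± 0.54) fell. Among the other inhibitors Cyld (0.57 ± 0.08) and Rnf11 (0.51 ± 0.08) rose, and Nfkbib (-0.73 ± 0.09), Irak3 (-1.41 ± 0.39), Socs1 and Tnip3 fell. These changes stand beside the change in astrocyte markers given above, and time and batch cannot be told apart in them.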

How the data were processed

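Per the labels and the methods of the study, poly(A) RNA of 32 cortical neuron cultures was sequenced with a stranded kit (75-base single-end reads), and the authors mapped the reads with STAR to GRCm38 and deposited raw counts per gene from featureCounts, taken by strand. Groups and experiment batches were taken from the labels, and all columns were used. Gene symbols came from GENCODE M21, with 259 of 49671 genes unmatched. Bcl3 and Nfkb2 share exon bases with other genes on the opposite strand only.

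A gene entered the tests with 5 or more counts in 3 or more libraries. Tests were made with edgeR 4.0.16 (TMM, quasi-likelihood, R 4.3.3), all groups of a time point in a fit. SE is the log2 fold change divided by the square root of F. Within-batch differences used log2 CPM with a prior count of 2. DESeq2 1.42.0, other normalization, filters, covariates and left-out libraries were tried. The fits were tested on simulated data with planted changes larger than most of the members' values. That test does not show whether changes of the members' size could be found. Same-batch libraries deviated together (median r of 0.63 at 6 h and 0.52 at 5 d), and libraries sharing only a replicate number did not (-0.22 and -0.16).

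The members, lists and tests were chosen with earlier results of these data known. All members were named. From each list the genes called for an oligoribonucleotide against untreated were named, or otherwise the 2 with the smallest p after miR-92a-1-5p at 6 h. For untreated cultures at 5 d against 6 h, the genes called were named, but from the target list only Tnf and the chemokine genes. For Nfkbia, Nfkbiz and Tnfaip3 the 3 genes of highest Pearson correlation were named.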

Additional observations from a re-analysis of the deposited data

Results flagged for a closer look

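Each member was checked in each group of 4 libraries for a library far from the other 3, by the gap to its nearest neighbour as a share of the group's range (Dixon's ratio). Of 80 such sets 7 stood out, and chance alone flags about 1 in 20. After 6 h of miR-124-5p, replicate 1 was the highest for Rela (31.3 CPM, the others 26.2 to 27.1), Nfkbia (19.4 CPM, the others 15.1 to 15.4) and Nfkbiz (4.46 CPM, the others 2.29 to 2.60). After 6 h of miR-92a-1-5p, replicate 3 was the highest for Nfkbiz (5.15 CPM, the others 3.44 to 3.65). Both libraries belong to the batch of untreated replicate 4. After 5 d of miR-92a-1-5p, replicate 2 was the highest for Nfkbiz (5.77 CPM, the others 4.66 to 4.78), in the batch of untreated replicate 1, where the other 3 libraries had 7.06 to 7.46 CPM. Rela was lowest in replicate 3 after 5 d of miR-92a-1-5p (24.6 CPM, the others 25.2 to 25.3) and in replicate 2 after 5 d of Mut.oligo (20.5 CPM, the others 27.4 to 28.8), where the untreated partner of that batch had 22.8 CPM. No member passed the test of whether an oligoribonucleotide's effect differed between 6 h and 5 d.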

How the results depend on the processing

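In the 15 comparisons that involve an oligoribonucleotide the count of members called stayed at 0 in 279 of 279 recomputations: the batch covariate, the replicate block, DESeq2 with and without the batch, RLE size factors, no filter, at least 10 counts in every library (which drops Bcl3), no minimum fold, only the groups compared, and each library left out. For untreated cultures at 5 d against 6 h the count of 2 became 1 without a filter on low counts (Nfkbiz), 1 with only the groups compared (Nfkbie), and 0 to 2 with a library left out. The batch covariate could not be fitted there. It stayed at 2 with the replicate block and with DESeq2, and no minimum fold gave 3. The replicate block changed no call, and a shared replicate number did not make libraries of different batches deviate together. Of 2924 recomputed log2 fold changes of members, 207 had the opposite sign, all of them uncalled values, the largest of -0.38 (Bcl3, untreated 5 d against 6 h), and 2705 kept direction and side of the threshold. In those 15 comparisons, leaving out the 3 with untreated at 5 d, 51 member values changed sign under some setting. Sign changes in the 3 left out were not counted. The direction of these small values is therefore not settled. Depth limits Bcl3, at 2 to 19 counts.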
